A study of Arabidopsis thaliana with 12 samples.

Results

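Plants that overexpress ARR22 were compared with wild-type Arabidopsis thaliana of the accession Col-0 when neither had been given hormone. The comparison used the 3 arrays labelled ARR22-ox with no treatment and the 3 arrays labelled Col-0 with no treatment, which are 6 of the 12 arrays of the study. The arrays were taken by their genotype and treatment labels, and every probe set other than the control probe sets was tested. All the plants were 21 days old and in the vegetative stage, and RNA came from the complete plant. The wild type carried the stock code N1092. The promoter, the vector and the number of lines behind ARR22-ox are not given in the labels used here, so all 3 arrays may represent 1 line. The untreated plants had no treatment at all and are not a mock control. In the other 6 arrays, which enter only where stated, the same 2 genotypes had been given the cytokinin t-zeatin at 20 µM for 3 h. The labels do not say that the 3 arrays of a group came from separate plants, so the p-values measure the spread between arrays, which may be technical. They give no batch or pairing either, and a batch that follows genotype cannot be told apart from genotype. The replicate numbers used here follow the order of the arrays within each group and are not given by the labels.

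Cytokinins are plant hormones that control cell division, shoot growth and leaf ageing. They are sensed by histidine kinases at membranes, which pass a phosphate through shuttle proteins to response regulators in the nucleus. Type-B response regulators are transcription factors that switch on early cytokinin genes, type-A regulators are among those genes and dampen the signal, and ARR22 belongs to the small type-C group, which carries the receiver domain without a DNA-binding part.

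The values are MAS5 signals, which are intensities per probe set on a linear scale, set by the authors to the same trimmed mean on every array. They were compared as log2 values in limma, and a probe set was called when its Benjamini-Hochberg adjusted p was under 0.05. Of 22746 probe sets, 4822 (21.2%) were called: 2391 (10.5%) were higher in ARR22-ox and 2431 (10.7%) were lower. The called probe sets included 2050 (9.01% of those tested) that differed by at least 2-fold. Of these, 868 were higher (3.82%) and 1182 were lower (5.20%). The median log2 difference over all probe sets was -0.005.

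ARR22-ox replicate 3 stood apart from the other untreated arrays. Control transcripts gave a ratio of 3' to 5' signal of 1.82 (GAPDH) and 3.47 (actin) on it, whereas the other 11 arrays reached at most 1.08 and 1.38. The median standard deviation of log2 signals was 0.311 in untreated ARR22-ox and 0.166 in untreated Col-0. Without it, 8583 probe sets (37.7%) were called, 4256 higher (18.7%) and 4327 lower (19.0%). Of the 4822 probe sets called with all 6 arrays, 4797 (21.1% of those tested) were called with the same sign without replicate 3, and 25 were not. Of the 4797, 2370 were higher (10.4%) and 2427 lower (10.7%). The 3 signals of 1 genotype all lay above the 3 of the other in 4428 probe sets (19.5%) for ARR22-ox and in 4484 (19.7%) for Col-0. Leaving out any 1 Col-0 array brought the count to 2663 (replicate 1), 2710 (replicate 2) or 2928 (replicate 3). Results below are given with the 6 arrays, and part of them also without ARR22-ox replicate 3. Where the second value is left out, it may still differ.

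The transgene itself was checked first. RR22 (AT3G04280), the symbol under which the annotation holds ARR22, had signals of 0.638, 1.92 and 0.838 in Col-0. In ARR22-ox they were 2857, 3248 and 3661. The groups did not overlap, replicate 3 had the highest signal, and the log2 difference was 11.65 ± 0.37 (SE, n = 3 arrays per group, limma adjusted p = 9.11e-06). Col-0 signals this low have no reliable size, and with an offset of 16 added before log2 the difference was 7.57. It was 11.56 without replicate 3. The endogenous gene and the transgene cannot be told apart by this probe set.

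The tissue label was set against organ markers. Of the 54 nuclear photosynthesis genes listed, 10 were measured, and they gave signals between 1024 and 3577 on all 6 arrays. Of the 25 root markers listed, only PYK10, a beta-glucosidase of roots and seedlings, could be measured, with signals from 2008 to 2217 in Col-0 and from 1548 to 1774 in ARR22-ox. PYK10 was not called with 6 arrays (adjusted p = 0.0547) and was called lower without replicate 3 (log2 -0.39, adjusted p = 0.00206). None of the 9 flower markers was matched to a probe set in the platform annotation used, which leaves 8730 probe sets without a gene, so they were not analysed here. In whole plants, fewer cells of a type and less RNA per cell cannot be told apart.

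Cytokinin genes came next, in the order of the pathway. None of the 12 receptor and phosphotransfer genes, and none of the 6 cytokinin response factors, was paired with a probe set of its own in that annotation, and these were not analysed here. Of 23 response regulators, 5 were measured. Apart from RR22, RR19 was called higher, and RR18, RR16 and ARR15 were not called. Of 30 genes of cytokinin metabolism, 3 were measured: UGT73C1 was called higher, UGT76C2 lower and UGT76C1 was not called.

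The type-A regulators RR16 and ARR15, which are early cytokinin-responsive genes, were low in both genotypes. RR16 (AT2G40670) had signals of 23.7, 26.6 and 31.1 in Col-0 and of 13.8, 14.3 and 24.9 in ARR22-ox, so that replicate 3 overlapped the Col-0 range. Its log2 difference was -0.66 ± 0.29 (adjusted p = 0.155) with 6 arrays, and -0.94 (adjusted p = 0.0107) without replicate 3. ARR15 (AT1G74890) gave 12.1, 12.6 and 11.7 in Col-0 and 7.66, 12.2 and 10.5 in ARR22-ox. These overlapped, and the log2 difference was -0.29 ± 0.30 (adjusted p = 0.565). RR18 (AT5G58080), a type-B regulator, had a log2 difference of -0.30 ± 0.61 (adjusted p = 0.791). The sign turned to 0.30 without replicate 3, and it was called in neither fit.

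RR19 (AT1G49190), another type-B regulator, was dim in every array, from 0.553 to 1.80 in Col-0 and from 4.17 to 8.24 in ARR22-ox. Its log2 difference was 2.28 ± 0.62 (adjusted p = 0.0358). With the offset of 16 it was 0.34, and the call was lost when any 1 of the 6 arrays was left out, the adjusted p then being at most 0.0927. UGT76C2 (AT5G05860) encodes a glucosyltransferase that inactivates cytokinins by N-glucosylation. Its signals were 39.8, 44.5 and 31.9 in Col-0 and 9.83, 16.4 and 24.2 in ARR22-ox, with no overlap and replicate 3 closest to Col-0. The log2 difference was -1.28 ± 0.34 (adjusted p = 0.0329), and -1.59 (adjusted p = 0.00123) without replicate 3. The call ended when any 1 of the other 5 arrays was left out, with an adjusted p of at most 0.126. UGT76C1 (AT5G05870), a neighbouring enzyme of the same kind, stayed between 48.9 and 59.7 on all 6 arrays (log2 0.13 ± 0.14, adjusted p = 0.596). UGT73C1 (AT2G36750), a cytokinin O-glucosyltransferase, gave 0.924, 0.627 and 0.985 in Col-0 and 18.4, 11.7 and 5.96 in ARR22-ox. The log2 difference was 3.71 ± 0.56 (adjusted p = 0.00301), and 0.71 with the offset, because all these signals lay below the median signal of 38.7.

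**Figure D1:**
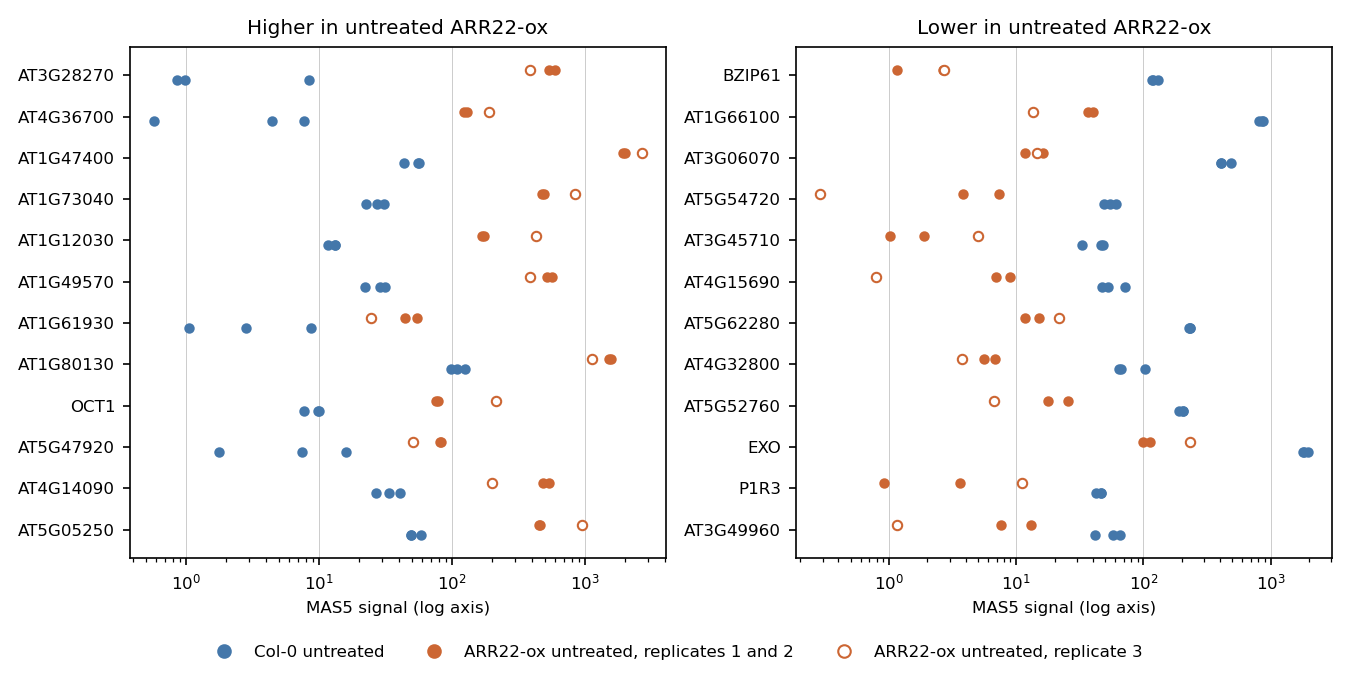
MAS5 signals (log axis) of the 12 named genes with the largest higher and the 12 with the largest lower differences in untreated ARR22-ox, 1 gene per line. Blue points are the 3 Col-0 arrays, filled orange points ARR22-ox replicates 1 and 2, and open orange points ARR22-ox replicate 3. In no gene do the 2 genotypes overlap, as the naming rule required, and replicate 3 lies on either side of the other ARR22-ox arrays.

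Beyond the transgene, the largest differences were taken among probe sets paired with 1 gene and called in both fits, with no overlap between the genotypes and a mean signal of at least 38.7 in the higher genotype. Of the 4822 called probe sets, 2469 were paired with 1 gene, and the others, among them some with larger differences, are not named here. Since the rule fixed their call and their lack of overlap, the values below describe them. Most of these genes have no symbol in the annotation used here and are given by locus.

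Among the 12 higher genes, AT1G47400 combined a high signal with little spread. It gave 43.6, 56.4 and 55.3 in Col-0 and 1938, 2000 and 2686 in ARR22-ox, a log2 difference of 5.41 ± 0.16 (adjusted p = 9.11e-06) and 5.26 without replicate 3. AT3G28270 went from 0.981, 0.859 and 8.48 in Col-0 to 536, 599 and 386 in ARR22-ox. Its log2 difference of 8.02 ± 0.80 rested on Col-0 signals near 0, and was 4.75 with the offset. AT1G80130 was already clearly measured in Col-0, at 98.9, 110 and 126, and reached 1577, 1534 and 1130 in ARR22-ox (log2 3.65 ± 0.16, adjusted p = 2.43e-05).

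AT1G73040 gave 31.1, 22.8 and 27.4 in Col-0 and 480, 497 and 842 in ARR22-ox (log2 4.45 ± 0.23). AT1G49570 gave 29.1, 31.4 and 22.3 against 521, 568 and 389 (log2 4.16 ± 0.19). In AT1G73040 replicate 3 was the highest of the ARR22-ox arrays, and in AT1G49570 it was the lowest. OCT1 (AT1G73220), a carnitine transporter of the organic cation transporter family, was likewise highest in replicate 3, with 9.86, 10.1 and 7.77 in Col-0 and 78.5, 76.3 and 215 in ARR22-ox. Its log2 difference was 3.57 ± 0.40 with 6 arrays and 3.08 without replicate 3. The other 6 higher genes were AT4G36700 (log2 5.75), AT1G12030 (4.19), AT1G61930 (3.74), AT5G47920 (3.56), AT4G14090 (3.49) and AT5G05250 (3.48). With the offset they were 3.01, 3.12, 1.49, 1.87, 2.99 and 3.13, in the same order. Without ARR22-ox replicate 3 they were 5.55, 3.75, 4.07, 3.78, 3.94 and 3.12. Col-0 signals were as low as 0.578 in AT4G36700, 1.05 in AT1G61930 and 1.77 in AT5G47920. Replicate 3 was the highest ARR22-ox array for 6 of the 12 and the lowest for the other 6.

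The first of the 12 lower genes by size was BZIP61 (AT3G58120), a transcription factor of the basic leucine zipper class. Its signals were 129, 118 and 120 in Col-0 and 2.68, 1.16 and 2.71 in ARR22-ox. The log2 difference was -5.91 ± 0.37 (adjusted p = 6.00e-05), and -2.93 with the offset. EXO (AT4G08950), which encodes EXORDIUM, a brassinosteroid-responsive protein of the cell wall that promotes cell expansion, was the brightest of the 12. It gave 1804, 1953 and 1843 in Col-0 and 98.7, 112 and 232 in ARR22-ox, with replicate 3 closest to Col-0. Its log2 difference was -3.77 ± 0.29 (adjusted p = 0.000135), and -4.15 without replicate 3.

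AT1G66100 gave 850, 813 and 866 in Col-0 and 40.03, 36.4 and 13.5 in ARR22-ox (log2 -4.96 ± 0.37, and -4.46 without replicate 3). AT3G06070 gave 491, 409 and 410 in Col-0 and 16.2, 11.7 and 14.5 in ARR22-ox (log2 -4.96 ± 0.16). AT5G62280 gave 228, 233 and 234 in Col-0 and 11.6, 15.1 and 21.6 in ARR22-ox (log2 -3.89 ± 0.22). In these 3 genes every ARR22-ox signal was far below every Col-0 signal, and the Col-0 arrays lay close together.

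The others were AT5G54720 (log2 -4.77), AT3G45710 (-4.30), AT4G15690 (-3.94), AT4G32800 (-3.88), AT5G52760 (-3.79), P1R3 (AT3G29370, -3.76) and AT3G49960 (-3.47). With the offset they were -1.85, -1.65, -1.77, -2.12, -2.77, -1.55 and -1.63, in the same order. ARR22-ox signals were as low as 0.288 in AT5G54720, 0.795 in AT4G15690 and 0.919 in P1R3. Among the lower genes, AT5G54720, AT4G15690, P1R3 and AT3G49960 lost their call when Col-0 replicate 1, 2 or 3 was left out. Their adjusted p then reached at most 0.0688, 0.0623, 0.0570 and 0.0808. Without ARR22-ox replicate 3 their log2 differences were -3.37, -2.84, -4.63 and -2.44, and that of AT3G45710 was -4.92. Those of AT4G32800 and AT5G52760 were then -3.64 and -3.23.

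Gene groups were described by how many of their measured members were called, beside the background of 10.5% of all probe sets called higher and 10.7% called lower. The 38 lists written by gene identifier hold 731 genes, of which only 108 could be measured, and 21 further families were taken by gene symbol. The median log2 difference of a list stands beside the median of -0.005 over all probe sets. Many genes named from a list were picked by size among its called members, so their values and any lack of overlap describe them.

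**Figure D2:**
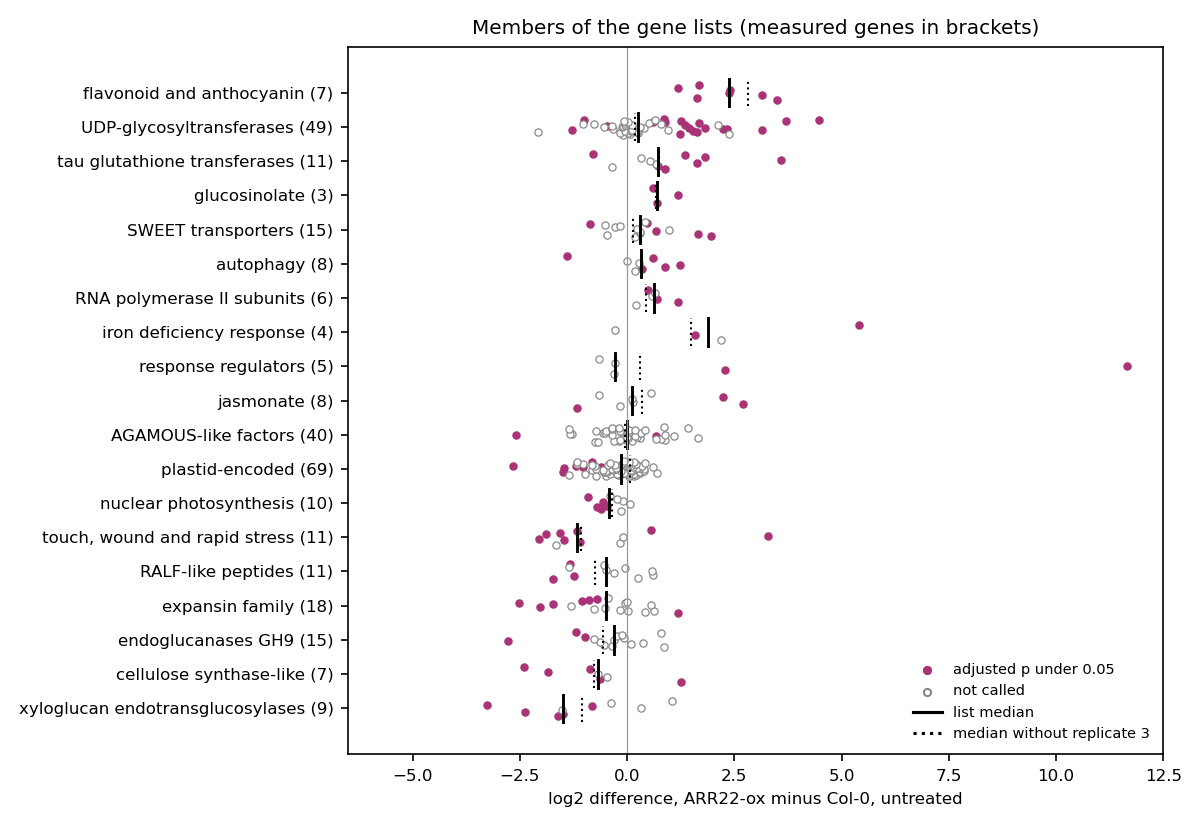
Log2 difference (ARR22-ox minus Col-0, untreated) of each measured gene in 19 gene lists, with the number of measured genes in brackets. Filled points were called and open points were not; solid bars mark the list median and dotted bars the median without ARR22-ox replicate 3. The 7 flavonoid and anthocyanin genes all lie to the right of 0, and the 5 called xyloglucan endotransglucosylases lie to the left; the point at 11.65 is RR22.

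All 7 measured genes of flavonoid and anthocyanin synthesis, of 27 listed, were called higher in both fits, with a median log2 difference of 2.37 (2.82 without replicate 3). The pathway makes flavonols and the red and purple anthocyanin pigments of leaves and stems, and its last steps attach sugars and acyl groups. DFR, dihydroflavonol reductase, which commits the pathway to anthocyanins, gave 118, 139 and 144 in Col-0 and 1066, 1272 and 239 in ARR22-ox. Replicates 1 and 2 were far above Col-0 and replicate 3 only just above it. The log2 difference was 2.37 ± 0.56 (adjusted p = 0.0206) with 6 arrays and 3.13 (adjusted p = 4.07e-08) without replicate 3. With that array kept, the call was lost when any 1 of the other 5 was left out.

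UF3GT, a glycosyltransferase of the anthocyanin branch, gave 43.3, 32.3 and 33.6 in Col-0 and 451, 440 and 167 in ARR22-ox (log2 3.15 ± 0.37, adjusted p = 0.000922). AT5MAT, which adds a malonyl group to anthocyanins, gave 10.7, 10.7 and 13.3 in Col-0 and 88.3, 74.9 and 33.5 in ARR22-ox (log2 2.39 ± 0.36). AT4G14090, which is also one of the 12 higher genes above, gave 33.9, 40.6 and 27.0 in Col-0 and 485, 540 and 201 in ARR22-ox (log2 3.49 ± 0.36). None of these 3 overlapped between the genotypes.

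The flavonol glycosyltransferases UGT78D1 and UGT78D2 were higher by 1.69 ± 0.19 and 1.64 ± 0.25 on the log2 scale, and AT1G06000 by 1.19 ± 0.30. The call of AT1G06000 was lost when any 1 array other than ARR22-ox replicate 3 was left out (adjusted p at most 0.102). ARR22-ox replicate 3 was the lowest ARR22-ox array in all 7 genes, as it was in 8325 of all 22746 probe sets, and all 7 differences were larger without it. No regulator of this pathway was among the measured genes.

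Among other genes for sugar conjugation and detoxification, more were called higher than lower. Of 49 UDP-glycosyltransferases, enzymes that attach sugars to small molecules, 16 were called higher, 3 lower and 30 neither. Without ARR22-ox replicate 3, 16 were higher, 6 lower and 27 neither. UGT76E11 gave 18.5, 15.9 and 18.5 in Col-0 and 120, 118 and 40.8 in ARR22-ox (log2 2.24 ± 0.40). UGT87A2 was more even, at 171, 192 and 174 against 298, 337 and 344 (log2 0.87 ± 0.10). The largest log2 difference of the family, 4.47 for UGT73B4, came from Col-0 signals under 2 and was 1.38 with the offset. Of the 16 called higher with 6 arrays, UF3GT, UGT78D1, UGT78D2 and UGT73C1 also stand on the lists above.

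Among the tau-class glutathione transferases, which join glutathione to reactive compounds, 6 of 11 were called higher and 1 lower. GSTU16 gave 114, 130 and 142 in Col-0 and 342, 319 and 316 in ARR22-ox (log2 1.35 ± 0.11). GSTU22 gave 28.3, 18.9 and 22.7 against 73.4, 70.8 and 68.5 (log2 1.63 ± 0.19), and GSTU18 was the member called lower (-0.79 ± 0.13). For GSTU16 and GSTU22 replicate 3 was close to replicates 1 and 2. The 3 measured glucosinolate genes, of 29 listed, were all called higher by 0.60 to 1.19 on the log2 scale. They were BCAT4, an aminotransferase that starts methionine chain elongation, UGT74B1, which glucosylates thiohydroximates, and AT2G31790.

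Iron was represented by 4 measured genes of 27 listed. AT1G47400, given above, and PYE were called higher in both fits. PYE encodes POPEYE, a transcription factor of the iron deficiency response, and gave 65.0, 83.1 and 60.0 in Col-0 and 171, 163 and 318 in ARR22-ox (log2 1.59 ± 0.26, adjusted p = 0.00472). BHLH101, a factor of the same response, gave 2.84, 7.35 and 16.4 against 28.8, 18 and 63.3. It did not overlap but was not called (log2 2.2, adjusted p = 0.0578). AT3G13610 was not called with 6 arrays (log2 -0.28, adjusted p = 0.498) and was called lower without replicate 3 (-0.59). Replicate 3 was the highest ARR22-ox array in all 4 genes. The iron storage genes listed were not matched to a probe set in the platform annotation used and were not analysed here.

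Sugar transport and storage genes were measured in small numbers. APL3, a large subunit of the enzyme that makes ADP-glucose for starch, gave 31.6, 38.1 and 42.2 in Col-0 and 443, 504 and 188 in ARR22-ox (log2 3.23 ± 0.35, adjusted p = 0.000650). Of 15 SWEET transporters, which carry sugars across membranes, 4 were called higher and 1 lower. SAG29, a member induced in ageing leaves, gave 37.7, 35.8 and 35.6 against 144, 173 and 113 (log2 1.96 ± 0.17). SWEET13 gave 43.4, 30.6 and 31.6 against 108, 110 and 108 (log2 1.65 ± 0.16), and in both genes all ARR22-ox signals were above all Col-0 signals. SWEET16, a vacuolar member, was the one called lower (-0.85 ± 0.15).

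Cell wall genes were called mostly lower. The 5 measured genes of the list of xyloglucan enzymes and EXORDIUM, of 19 listed, were all lower in both fits, with a median log2 difference of -2.37 (-1.70 without replicate 3). Xyloglucan endotransglucosylases (XTH) cut and rejoin the xyloglucan chains that tie cellulose together, and this is needed as walls expand. XTH33 gave 113, 122 and 128 in Col-0 and 13.4, 13.2 and 11.4 in ARR22-ox (log2 -3.26 ± 0.16, adjusted p = 2.98e-05). XTH18 gave 430, 424 and 331 against 119, 123 and 29.9 (log2 -2.37 ± 0.50, and -1.70 without replicate 3). Replicate 3 was the lowest array in both. XTH18 lost its call when Col-0 replicate 1 or 2 was left out (adjusted p at most 0.0596), and XTH19 when any Col-0 array was left out (at most 0.0625). Over the 9 XTH genes found by symbol, 5 were lower and none was higher.

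Expansins, which loosen walls without cutting them, had 13 measured genes on the list of 22: 6 were called lower, 1 higher and 6 neither, and the median log2 difference was -0.77. Over the 18 expansins found by symbol, 6 were lower, 1 was higher and 11 were not called, with a median of -0.48. EXPA8 gave 139, 136 and 143 in Col-0 and 14.0, 25.7 and 40.6 in ARR22-ox (log2 -2.51 ± 0.34). EXLA1 gave 688, 766 and 754 against 163, 188 and 190 (log2 -2.03 ± 0.10). EXLB1 was the one called higher, at 94.7, 119 and 120 against 294, 319 and 170 (log2 1.19 ± 0.24). Its call was lost without Col-0 replicate 1 (adjusted p = 0.0542). Of the other lower expansins, EXPB1, EXPB2 and EXPA15 each lost the call when 1 of several arrays was left out (adjusted p at most 0.143, 0.115 and 0.0887).

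Other genes for wall polysaccharides and for peptides sensed at the wall were also measured. Of 7 cellulose synthase-like genes, 4 were called lower and 1 higher. CSLC04, which makes the glucan backbone of xyloglucan, gave 558, 612 and 566 in Col-0 and 163, 166 and 156 in ARR22-ox (log2 -1.84 ± 0.09, adjusted p = 2.98e-05). The mannan synthase gene CSLA03 gave 193, 181 and 180 against 47.7, 43.2 and 20.9 (log2 -2.40 ± 0.29). Of 15 endoglucanases of family GH9, 3 were lower and none higher, led by GH9B13 at 236, 235 and 241 against 26.0, 23.4 and 69.4 (log2 -2.77 ± 0.37). In GH9B13 replicate 3 was closest to Col-0, and in CSLA03 it was farthest. Without replicate 3 the log2 differences of GH9B13 and CSLA03 were -3.27 and -2.02. Of 22 trichome birefringence-like genes, a family that acetylates wall polymers, 3 were lower, which is near the 10.7% of all probe sets, 1 was higher and 18 were not called. Of 11 RALF-like genes, which encode small secreted peptides sensed at the wall, 3 were lower and none higher with ARR22-ox replicate 3 kept. Among the lower ones were RALFL22 (log2 -1.34 ± 0.12) and RALFL33 (-1.23 ± 0.18). Without ARR22-ox replicate 3, 5 of the 11 RALF-like genes were called lower and 2 were called higher.

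Photosynthesis genes differed by small amounts. Of the 10 measured nuclear genes, 5 were called lower and none higher, and the median log2 difference was -0.43. LHCB4.2, a chlorophyll-binding antenna protein, gave 2478, 2372 and 2370 in Col-0 and 1198, 1157 and 1522 in ARR22-ox (log2 -0.91 ± 0.13, adjusted p = 0.00236). PSAN, a subunit of photosystem I, gave 2051, 1985 and 2121 against 1356, 1421 and 1024 (log2 -0.71 ± 0.14). RCA, SBPASE and PRK, which serve carbon fixation, and ATPC1, of the chloroplast ATP synthase, were not called, with log2 differences from -0.24 to 0.07. Without replicate 3, 8 of the 10 were called lower, RCA and PRK among them. Of the 5 called with 6 arrays, LHCB4.2 alone kept its call whichever array was left out. The 2 measured genes of chlorophyll synthesis, PORB and CHLM, were lower by 0.50 ± 0.12 and 0.53 ± 0.11 on the log2 scale, and their calls were lost when 1 of several arrays was left out (adjusted p at most 0.0949 and 0.0587).

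Genes encoded in the plastid were mostly not called. Of 69 measured, 7 were called lower, which is near the 10.7% of all probe sets, and none was called higher. All 7 were also called lower without replicate 3. Replicate 3 was the lowest ARR22-ox array in 54 of the 69. Without it, 14 of the 69 were called higher and 17 lower, beside 18.7% and 19.0% of all probe sets in that fit. Their median log2 difference moved from -0.15 to 0.08. The photosystem I gene psaA gave 908, 677 and 1056 in Col-0 and 228, 240 and 46.6 in ARR22-ox. Its log2 difference was -2.66 ± 0.58 with 6 arrays and -1.89 without replicate 3, and its call was lost without Col-0 replicate 1 or 3 (adjusted p at most 0.0684). The photosystem II gene psbD was steadier, at 523, 448 and 527 against 192, 197 and 152 (log2 -1.48 ± 0.13, adjusted p = 0.000252).

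**Figure D3:**
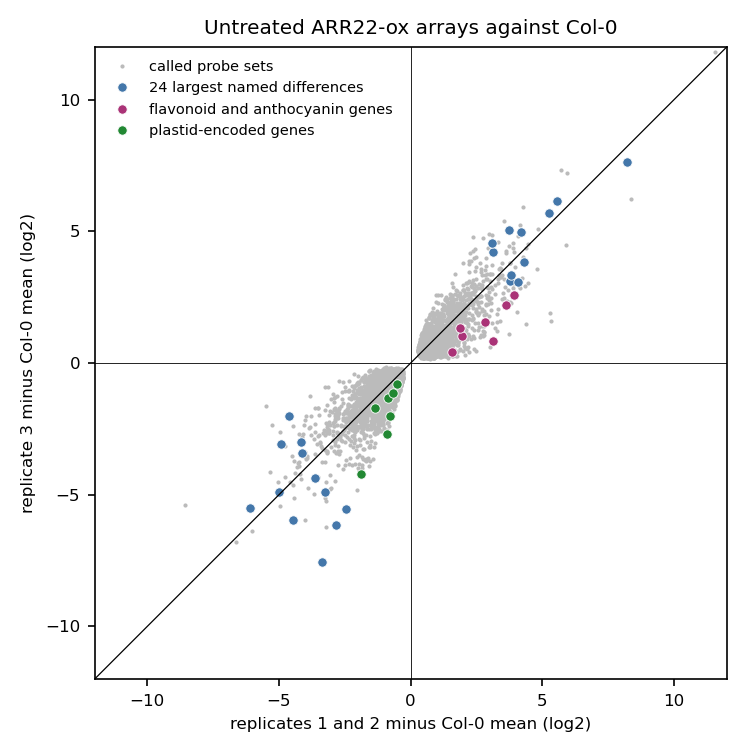
Log2 difference from the Col-0 mean of ARR22-ox replicate 3 (vertical) against the mean of ARR22-ox replicates 1 and 2 (horizontal), for the 4822 called probe sets (grey), the 24 largest named differences (blue), the 7 flavonoid and anthocyanin genes (purple, with AT4G14090 of both sets) and the 7 called plastid-encoded genes (green). Points on the diagonal differ equally from Col-0 in replicate 3 and in the other 2 arrays. The flavonoid genes lie below the diagonal, with smaller differences in replicate 3, and so do the called plastid genes, with larger ones.

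Genes that respond within minutes to touch, wounding or elicitors were mostly lower. Of 11 measured, of 38 listed, 6 were called lower, 2 higher and 3 neither, with a median log2 difference of -1.16. The calmodulin-like calcium sensors CML38 and CML42 belonged to the lower ones. Of the 7 calmodulin-like genes found by symbol, only these 2 were called lower, none was called higher and 5 were not called. Without ARR22-ox replicate 3, 3 of the 7 were called lower and 1 higher. CML38 gave 159, 155 and 182 in Col-0 and 46.2, 50.6 and 38 in ARR22-ox (log2 -1.89 ± 0.14, adjusted p = 0.000139). The transcription factor gene WRKY22 gave 124, 129 and 125 against 25.7, 30.0 and 35.8 (log2 -2.06 ± 0.15). STZ, a zinc finger repressor, gave 317, 309 and 324 against 136, 116 and 76.5 (log2 -1.57 ± 0.20). The groups were apart in all 3 of these genes, and replicate 3 lay on the same side as the other ARR22-ox arrays. WRKY53 was also lower (-1.10) and WRKY6 higher (0.56), and both calls were lost when 1 of several arrays was left out (adjusted p at most 0.103 and 0.107). AT1G76640 was called higher from Col-0 signals of 0.813 to 1.47 (log2 3.29, and 0.64 with the offset).

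Hormone and stress genes other than those of cytokinin showed both directions. Of 8 jasmonate genes, 2 were higher and 1 lower with 6 arrays, and 5 were higher and 1 lower without replicate 3. JRG21, a jasmonate-regulated gene, gave 27.4, 15.5 and 19.6 in Col-0 and 195, 196 and 60.3 in ARR22-ox (log2 2.70 ± 0.46). The antimicrobial peptide genes THI2.1 and PDF1.2 went opposite ways, by 2.25 ± 0.43 and -1.17 ± 0.32. Replicate 3 was the lowest ARR22-ox array in 7 of these 8 genes. PDF1.2 had a log2 difference of -0.75 without replicate 3, and lost its call when any Col-0 array was left out (adjusted p at most 0.124). THI2.1 gave 33.2, 29.7 and 26.8 in Col-0 and 95.1, 95.6 and 312 in ARR22-ox. Without replicate 3 the log2 differences of JRG21 and THI2.1 were 3.27 and 1.68.

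Of 6 auxin genes, 2 were lower and none higher. IAA29, a repressor of auxin responses, gave 53.9, 57.8 and 59.7 in Col-0 and 10.9, 5.96 and 14.8 in ARR22-ox (log2 -2.53 ± 0.33). GH3.3, which conjugates auxin to amino acids, was lower by 0.86 ± 0.24, and its call was lost when 1 of 4 arrays was left out (adjusted p at most 0.144). Of 5 genes of abscisic acid, cold and drought responses, HIS1-3 was higher and COR47 was lower. HIS1-3, a drought-inducible linker histone, gave 77.7, 95.2 and 79.3 in Col-0 and 529, 544 and 996 in ARR22-ox (log2 2.98 ± 0.24, adjusted p = 0.000164). COR47, a dehydrin, was lower by 0.71 ± 0.12 on the log2 scale.

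COR15A, a cold-regulated chloroplast protein, gave 164, 172 and 174 in Col-0 and 331, 323 and 45.5 in ARR22-ox. Replicates 1 and 2 were above Col-0 and replicate 3 was below it. Its log2 difference was -0.001 (adjusted p = 0.999) with 6 arrays and 0.95 (adjusted p = 3.20e-06) without replicate 3. AT2G38240, of the jasmonate list, behaved likewise, at 52.5, 46.3 and 57.6 against 129, 129 and 27.5 (log2 0.57, and 1.31 without replicate 3). Whether the high 3' to 5' ratio of replicate 3 has a part in these values was not tested.

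Few of the listed genes of cell division and ribosome biogenesis were measured. The 3 measured cell cycle genes, of 36 listed, were AUR1, AUR2 and PRL, and they were not called (log2 -0.25 to 0.12). Neither were the 3 measured genes of the nucleolus and ribosome biogenesis, of 13 listed (-0.11 to 0.22). The stem cell peptide gene CLV3 had signals between 1.23 and 2.86 on all 6 arrays. The 3 measured reference genes, PEX4, AT4G34270 and AT2G28390, were not called with 6 arrays, with log2 differences of -0.13, -0.01 and -0.14. Without replicate 3, PEX4 was called lower (-0.26, adjusted p = 0.0161).

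The gap between the genotypes was also compared with that after t-zeatin, in 1 limma model over all 12 arrays. Over all probe sets, 6427 (28.3%) were called for a difference between the gaps. Of the 32 genes given here from the transgene, the cytokinin lists and the largest differences, 18 were called. In 15 of the 18 the gap was smaller in size with t-zeatin, and in 5 of these its sign was opposite; in the other 3 it was wider. Since 24 of the 32 genes were chosen for their large untreated gap, this count describes the named genes and not the genome.

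**Figure D4:**
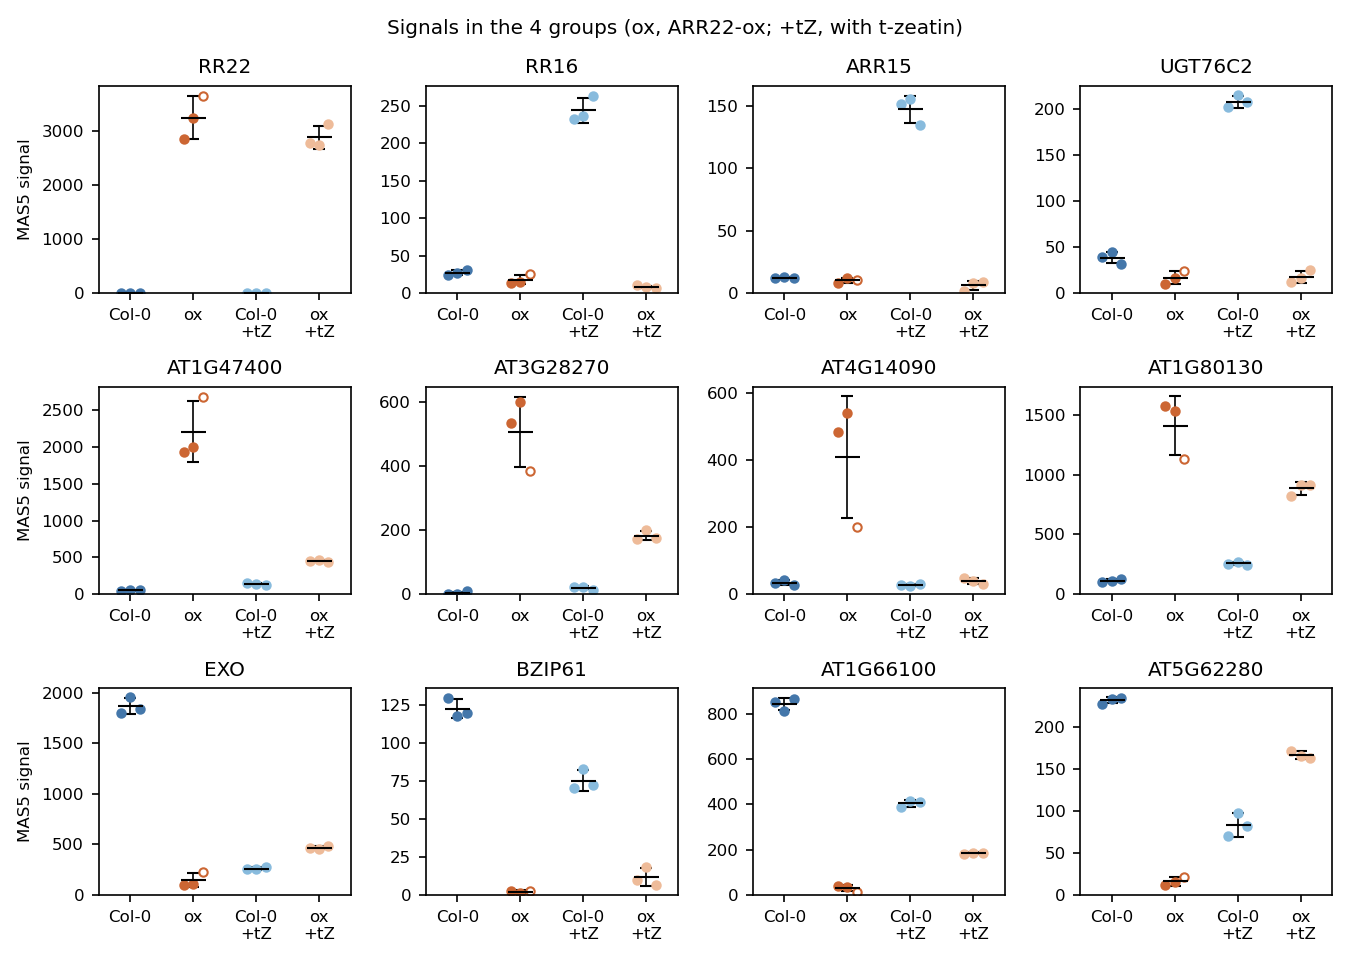
MAS5 signals of 12 genes in the 4 groups (linear axes from 0). Points are arrays, short bars the mean and whiskers the standard deviation of 3 arrays; the open point is untreated ARR22-ox replicate 3. RR16, ARR15 and UGT76C2 are highest in Col-0 with t-zeatin, whereas AT1G47400, AT4G14090 and EXO are farthest apart between the genotypes without hormone.

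RR16 had means of 27.1 ± 3.74 in Col-0 and 17.7 ± 6.27 in ARR22-ox without hormone (SD, n = 3 arrays). With t-zeatin they were 244 ± 17.0 and 8.55 ± 1.42. The gap was wider with t-zeatin, and the log2 gap with it minus that without was -4.18 ± 0.32 (SE, adjusted p = 1.17e-06). ARR15 and UGT76C2 showed the same pattern, with t-zeatin means of 147 and 209 in Col-0 and of 6.17 and 17.8 in ARR22-ox. Their gaps were also wider, with differences of -4.57 ± 0.65 (adjusted p = 0.000186) and -2.34 ± 0.44 (adjusted p = 0.00142).

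The named genes with the largest differences in untreated plants mostly went the other way. AT1G47400 had means of 51.8 ± 7.09 and 2208 ± 415 without hormone and of 139 ± 8.91 and 448 ± 9.43 with t-zeatin, and its gap was smaller with t-zeatin (difference of the gaps -3.72 ± 0.18, adjusted p = 3.07e-08). AT4G14090 had means of 33.8 ± 6.77 and 409 ± 182 without hormone and of 26.6 ± 3.31 and 39.2 ± 8.02 with it (difference of the gaps -2.95 ± 0.44, adjusted p = 0.000259). EXO went from 1867 ± 77.2 and 148 ± 73.3 to 262 ± 11.0 and 467 ± 13.2, and the gap changed sign (difference of the gaps 4.60 ± 0.32, adjusted p = 5.23e-07). AT5G62280 also changed sign, from 232 ± 3.42 and 16.1 ± 5.06 to 83.2 ± 13.8 and 166 ± 4.80.

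In the other 14 of the 32 genes the difference between the gaps was not called with all 12 arrays. RR22 was one of them, with a difference of 0.82 ± 0.45 (adjusted p = 0.210). AT1G49570 was another, at 27.6 ± 4.72 and 493 ± 92.6 without hormone and 39.8 ± 4.69 and 621 ± 32.0 with it (-0.19 ± 0.22, adjusted p = 0.594). AT3G45710 stayed low in ARR22-ox in both settings, with means of 42.5 and 2.65 without hormone and of 101 and 1.97 with it.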

How the data were processed

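The deposited values are linear intensities, 1 per probe set and array; per the submitters' processing notes the authors used MAS5, with no version given. The authors scaled every array to a trimmed mean of 100.008 (2% trimmed at each end). Detection calls were not used here, so a dim signal has no floor, and the number of arrays limits the precision. Signals were converted to log2 and fitted with limma 3.58.1 in R 4.3.3 (empirical Bayes with a variance trend, two-sided tests) on the 6 untreated arrays, over 22746 probe sets after 64 control probe sets were left out. The difference between the gaps used all 12 arrays. In the given platform annotation, 13513 probe sets match a single gene, 503 match several and 8730 have no entry; 13436 were found in the TAIR10.1 annotation by identifier. The brightest probe set with 1 gene stood for a gene.

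Named were ARR22, the cytokinin genes, and the 12 largest higher and 12 largest lower differences called with and without ARR22-ox replicate 3, with no overlap and a higher mean of at least the median signal. Up to 4 called members by size were named for other lists; further members given, such as those called in 1 fit only, were chosen after their values were seen. The comparison and lists were chosen with earlier results of these data known, and the 21 families by symbol were added after values were seen. Cytosolic ribosomal and mitochondrially encoded genes were not grouped, because the annotation used carries no descriptions or such tags. The fit was tested on simulated data. Alternatives were each array left out, all 12 arrays, a filter at the 40th percentile of signal, an offset of 16, quantile normalization, equal medians, array quality weights and no variance trend.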

Additional observations from a re-analysis of the deposited data

Results flagged for a closer look

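For 18 of the 32 genes in the cytokinin lists and among the largest named untreated differences, the log2 gap between ARR22-ox and Col-0 differed between plants with and without t-zeatin by the test of that difference (limma, all 12 arrays, adjusted over all probe sets). Values are the gap with t-zeatin minus the gap without. Over all probe sets, 6427 (28.3%) were called by this test. The 12 largest higher and 12 largest lower genes were chosen for their large untreated gap. The count and the smaller gaps therefore describe the named genes and not the genome.

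Among genes higher in untreated ARR22-ox, the gap was smaller with t-zeatin for AT3G28270 (-4.75), AT1G47400 (-3.72), AT1G12030 (-2.25), AT1G80130 (-1.87), AT4G14090 (-2.95) and AT5G05250 (-1.62). For AT1G61930 (-4.02) and RR19 (-3.11) the gap with t-zeatin had the opposite sign, on dim signals. AT1G61930 had means of 4.19 and 41.5 in untreated Col-0 and ARR22-ox and of 9.80 and 8.29 with t-zeatin.

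Among genes lower in untreated ARR22-ox, the gap was smaller for BZIP61 (3.11), AT1G66100 (3.83), AT3G06070 (2.78) and AT5G52760 (3.67). It turned for AT5G54720 (6.32), AT5G62280 (4.90) and EXO (4.60). AT5G52760 had means of 201 ± 8.01 and 16.7 ± 9.44 without hormone and of 72.7 ± 10.7 and 66.6 ± 6.65 with it (SD, n = 3 arrays). BZIP61 had 122 ± 6.30 and 2.18 ± 0.88 without and 75.1 ± 6.72 and 11.7 ± 5.96 with t-zeatin.

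The gap was wider with t-zeatin for the cytokinin genes ARR15 (-4.57), RR16 (-4.18) and UGT76C2 (-2.34), all of which had t-zeatin means of at least 147 in Col-0.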

How the results depend on the processing

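With 1 array left out, the count of called probe sets lay between 2663 and 8583. It was lowest without Col-0 replicate 1, moved by over 1.5 times without any Col-0 array or ARR22-ox replicate 3, and was 3531 and 3566 without ARR22-ox replicates 1 and 2. Array quality weights, which gave ARR22-ox replicate 3 a weight of 0.160 and the other 5 at least 1.13, brought it to 8553. The other settings gave between 3415 (no variance trend) and 7035 (all 12 arrays), and the share of higher calls stayed between 46.4% and 52.7% in all settings. RR18, not called in any setting, ranged from -0.97 (without ARR22-ox replicate 2) upwards and changed sign without ARR22-ox replicate 3 (0.30) and with array weights (0.19); the difference of gaps of RR22 changed sign with the offset (-0.11) and was not called either. Of the named and list genes, 38 lost their call without Col-0 replicate 1 and 34 each without replicates 2 and 3. For these, and for the count, leaving out an array also leaves fewer arrays in the fit. Genes below the signal filter have no value under it. No paired analysis was possible because the labels give no replicate numbers or pairs.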

Other observations

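Some gene families not described above had called members. Of 8 autophagy genes, 4 were higher and ATG8E was lower. ATG8E, which encodes a protein attached to autophagosome membranes, gave 476, 490 and 485 in Col-0 and 132, 183 and 251 in ARR22-ox (log2 -1.41 ± 0.21). ATG8B, of the same family, gave 65.5, 65.7 and 60.0 against 131, 135 and 191 (log2 1.24 ± 0.16), so that ATG8 genes were called in both directions. ATG3 and 2 other ATG8 genes, ATG8D and ATG8G, were also higher, and those 3 calls were lost when 1 of several arrays was left out. Of 6 subunits of RNA polymerase II, 3 were higher and none lower, led by NRPB7 at 56.9, 65.8 and 56.5 against 142, 139 and 129 (log2 1.2 ± 0.12).

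Of 14 bZIP transcription factors, 3 were higher and 4 lower: bZIP44 gave 51.6, 48.7 and 57.0 against 173, 224 and 172 (log2 1.85 ± 0.14), beside BZIP61 given above. BZIP34, its closest relative in the family, was dim and also lower (log2 -4.18, and -0.77 with the offset). Among 15 tetraspanins 3 were called, which is near the 21.2% of all probe sets: TET8 (log2 -1.23 ± 0.12) and TET10 (-1.22 ± 0.21) were lower and TET5 was higher (1.33 ± 0.13). The plant U-box ligases split evenly, with 2 of 9 higher and 2 lower, PUB19 (1.91 ± 0.18) and PUB26 (-1.80 ± 0.22) being the largest.

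With 6 arrays, further families also lay near or below that background. Of 40 AGAMOUS-like factors, 2 were called, of 20 beta-glucosidases 3, of 29 serine carboxypeptidase-like genes 6, and of 5 beta-tubulins 1. The beta-tubulins differed between the fits. Without ARR22-ox replicate 3, 4 of the 5 were called lower and none higher, beside 19.0% of all probe sets called lower. The lists with 1 or 2 measured genes, for zinc and copper, secondary walls, salicylate, ethylene, the clock, sulphur and heat shock, held 10 genes, of which SAG101 was called lower (log2 -0.73) and AT5G37670 higher (1.18); both calls were lost when 1 of several arrays was left out.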
